A study of Mus musculus with 6 samples.

Results

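The genes described here are 36 mouse genes that type I interferon is known to induce, out of 39179 genes counted in each library. They were chosen by name and matched to the deposited tables by Ensembl identifier, and all 36 were matched. RNA was sequenced from cultured B16-F10, a melanoma line derived from C57BL/6 mice, with the genotype Sirpa-wild type (Sirpa-WT, 3 libraries) or Sirpa-knockout (Sirpa-KO, 3 libraries). Sirpa encodes SIRPα, a membrane receptor for CD47. No treatment, time or added interferon is named for either group, and the sources used here do not say how the knockout was made, whether it is 1 clone, or whether replicates were separate cultures. The p-values therefore measure only the spread between these libraries, which may be technical. Some label fields give the cell line as Pmel and the tissue as tumor, while the series text describes cultured B16-F10 cells.

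Interferon alpha and beta bind the receptor formed by IFNAR1 and IFNAR2, whose kinases JAK1 and TYK2 phosphorylate STAT2. Together with IRF9, STAT2 enters the nucleus as part of the complex ISGF3, which binds the interferon-stimulated response element (ISRE) in the promoters of induced genes. The induced proteins include sensors that detect viral RNA, enzymes that block viral replication and feedback regulators. Melanoma cells can show such a programme at rest, when their own nucleic acids engage the sensors, or in response to interferon from neighbouring cells.

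The 5 libraries called shallow here held 338824 to 411695 counts, and Sirpa-KO replicate 1, called the deep library, held 29877270. Levels are given as CPM, which scales the counts of each library to the same total. In a shallow library 1 count equalled 2.43 to 2.95 CPM, and the limit that a count of 0 allows, 3 counts, equalled 7.29 to 8.85 CPM. Processed pseudogenes took 26.5% to 29.7% of counts in the shallow libraries and 0.177% in the deep library. The part of this gap in the results below was not tested. Fitted results are given with and without the deep library, and sums and orders that include it are also given per protein-coding counts where that changes them. For Sirpa itself the Sirpa-WT libraries held 12, 7 and 3 counts and the Sirpa-KO libraries 1584, 6 and 6. Its fitted log2 fold change was 0.17 ± 0.62 (SE) over 6 libraries and -0.38 ± 0.53 without the deep library (edgeR adjusted p = 0.938 and 0.806), so its RNA did not check the labels. Summed RNA of 7 melanocyte markers, all detected in every library, was 15960 to 19092 CPM in Sirpa-WT and lower in each Sirpa-KO library, at 15519 CPM in the deep library and 12626 and 12990 CPM in the shallow ones. Dct and Mitf were lower in every Sirpa-KO library (Dct at 2496 to 4863 CPM against 7901 to 9935 CPM), while the other 5 were each highest in the deep library in CPM. That the sum was lower in every Sirpa-KO library rested on Dct. Tyrp1, the other large part of it, had 5620 to 6665 CPM in Sirpa-WT, and 9394, 6053 and 5989 CPM in Sirpa-KO. The order of the sum, opposite to that of the interferon response sums below, held under each of 5 scalings, and its part in those results was not tested. Leukocyte markers (9 genes) summed to 9.72 to 32.6 CPM in the shallow libraries and 5.92 CPM in the deep library. Cd3e and Tyrobp were at 0 in all 6 libraries. Itgam, at 7.29 to 24.5 CPM, made up most of each shallow sum, and had 0.0335 CPM in the deep library. Lyz2 and Cd68 held the other shallow counts. Fibroblast markers (5 genes) summed to at most 13.6 CPM with Dcn at 0, and endothelial markers (4 genes) to at most 0.201 CPM with Cdh5, Kdr and Tie1 at 0. Of 3 further markers of plasmacytoid dendritic cells, which are professional interferon producers, Siglech and Ly6d were at 0 in all 6 libraries, and the third had 2.43 to 8.85 CPM in the shallow libraries and 70.8 CPM in the deep library.

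Many of these genes hold the letters of the ISRE in their promoters, and stretches from 6 of those with a match, chosen by hand, are printed here. RefSeq promoters of GRCm38.p6, each 300 bases from 250 before to 50 after a gene's start, were matched by symbol for 26 of the 36 genes. The ISRE letters searched, GAAA followed after any 2 bases by a further GAAA, on either strand, stood in 14 of these 26 (53.8%), against 3.99% of 27025 genes with a promoter and 3.44% of all 32851 promoters of the same length. The letters TTCNNNGAA of the related GAS element stood in 5 of the 26 (19.2%) and in 9.55% of genes. The stretches below run 5′ to 3′ on each gene's own strand and end before its start, and capitals mark every match to the ISRE letters.
Isg15, chr4:156200850-156200921, minus strand: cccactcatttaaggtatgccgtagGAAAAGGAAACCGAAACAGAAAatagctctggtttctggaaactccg
Oas1a, chr5:120907526-120907570, minus strand: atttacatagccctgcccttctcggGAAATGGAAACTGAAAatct
Rsad2, chr12:26456538-26456597, minus strand: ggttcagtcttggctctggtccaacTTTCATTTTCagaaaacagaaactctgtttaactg
Ifit1, chr19:34640760-34640838, plus strand: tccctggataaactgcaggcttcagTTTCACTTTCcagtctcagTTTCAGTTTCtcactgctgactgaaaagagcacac
Ifit3, chr19:34583348-34583441, plus strand: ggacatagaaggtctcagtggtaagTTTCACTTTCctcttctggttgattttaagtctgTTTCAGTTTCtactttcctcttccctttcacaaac
Ifit3b, chr19:34607744-34607837, plus strand: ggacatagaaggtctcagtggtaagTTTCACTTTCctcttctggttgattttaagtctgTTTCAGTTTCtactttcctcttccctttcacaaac
Isg15 held 3 overlapping matches, the first 78 bases upstream of its start, and Oas1a held 2 overlapping matches, the first 20 bases upstream. Ifit1, Ifit3 and Ifit3b each held 2 separate matches on the opposite strand. The stretches of Ifit3 and Ifit3b were identical at 94 of 94 positions. The other members with the ISRE letters were Bst2, Ddx58, Ddx60, Ifi203, Ifih1, Ifitm3, Oas3 and Stat2. Those with a promoter but without the letters were Cmpk2, Ifi35, Ifi44, Ifit2, Irf7, Irf9, Oasl1, Oasl2, Samd9l, Sp100, Trim25 and Xaf1. A match is a description of the letters and not of binding.

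RNA of the 36 genes, summed within each library, was higher in both shallow Sirpa-KO libraries than in any Sirpa-WT library, and the place of the deep library depended on the scaling. The sums were 1278, 1027 and 1056 CPM in Sirpa-WT replicates 1 to 3, and 1808, 1614 and 1673 CPM in Sirpa-KO replicates 1 to 3. Over the shallow libraries the mean was 1120 ± 137 CPM in Sirpa-WT (SD, n = 3) and 1644 ± 41.2 CPM in Sirpa-KO (SD, n = 2), a ratio of 1.47 with a propagated SD of 0.183. With the deep library the Sirpa-KO mean was 1698 ± 99.1 CPM (SD, n = 3) and the ratio 1.52 with an SD of 0.206. In CPM the ranges of the genotypes did not overlap. Per protein-coding counts the deep library (a sum of 1836 on that scale) fell within the Sirpa-WT range (1487 to 1855), below Sirpa-WT replicate 1, and with RLE scaling it did so too (1324 against 1129 to 1403), while both shallow Sirpa-KO libraries lay above Sirpa-WT under each of 5 scalings. No p-value is given for a sum over chosen genes. In these bulk cultures, more cells that express a gene and more RNA per cell cannot be told apart.

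A few genes took most of those counts. Samd9l, an antiviral restriction factor, Ddx58, the gene of the viral RNA sensor RIG-I, Isg15, a ubiquitin-like modifier, and Ifitm3, a membrane protein that blocks virus entry, together took 78.2% to 82.5% of the summed counts in Sirpa-WT and 72.9% to 78.0% in the shallow Sirpa-KO libraries. Their share in the deep library was 30.9%. Samd9l alone brought the level up without separating the genotypes, and without it the sums were 602, 515 and 559 CPM in Sirpa-WT and 1658, 980 and 987 CPM in Sirpa-KO. The ratio was then 1.76 over the shallow libraries and 2.16 with the deep library. The 32 genes other than those 4 summed to 223, 224 and 194 CPM in Sirpa-WT and to 1249, 437 and 367 CPM in Sirpa-KO, and the groups did not overlap. Both of these sums, unlike that of all 36, kept every Sirpa-KO library above every Sirpa-WT library under each of the 5 scalings. These genes with fewer counts rest on 236 counts in Sirpa-WT and 283 in the shallow Sirpa-KO libraries, a pooled ratio of 1.87 with an exact (Clopper-Pearson) 95% interval of 1.57 to 2.23. That interval, like the others of this kind given here, covers counting error only. At the bottom of the range, 15 members had fewer than 10 counts over the 5 shallow libraries, with 32 counts in Sirpa-WT, 20 in shallow Sirpa-KO and a pooled ratio of 0.974 (0.528 to 1.76). A difference of these 15 was not detectable at this depth, and they summed to 144 CPM in the deep library.

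**Figure D1:**
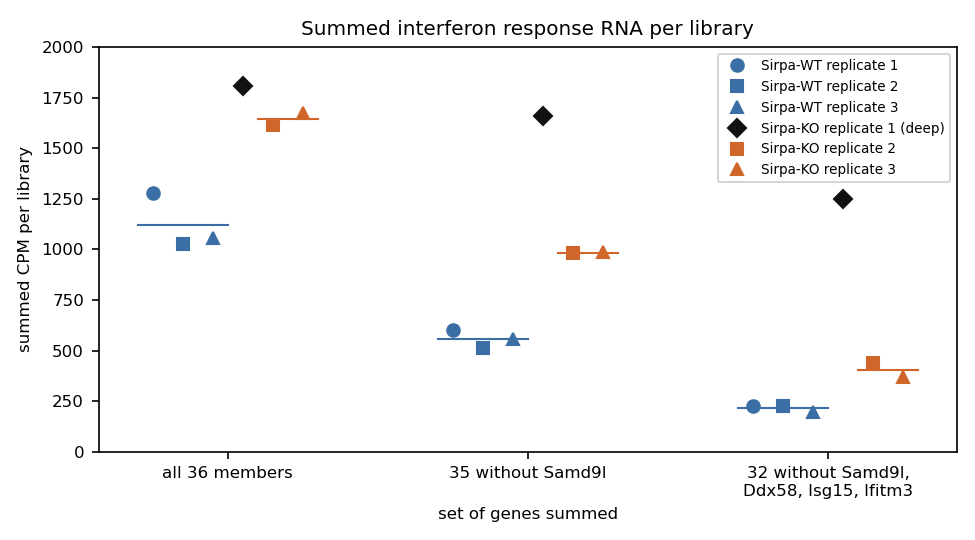
Summed CPM per library (vertical axis) for all 36 genes, for 35 without Samd9l and for 32 without Samd9l, Ddx58, Isg15 and Ifitm3; each point is a library and the lines are the means of the 3 Sirpa-WT and the 2 shallow Sirpa-KO libraries. In each set all 3 Sirpa-KO libraries lie above the 3 Sirpa-WT libraries on this CPM scale (for all 36 genes the deep library does not per protein-coding counts), and in the set of 32 the deep library (1249 CPM) also lies far above the other Sirpa-KO libraries (437 and 367 CPM).

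The transcription factors of the pathway came first in the order of roles. Stat2 and Irf9, which encode parts of ISGF3, and Irf7, which amplifies interferon production, summed to 14.6, 17.5 and 23.2 CPM in Sirpa-WT, 71.1 CPM in the deep library and 32.5 and 35.4 CPM in Sirpa-KO replicates 2 and 3. The 20 and 24 shallow counts gave a pooled ratio of 1.87 (0.990 to 3.57). The members were unlike each other. Stat2 gave 2, 1 and 3 counts in the Sirpa-WT libraries, and 6 and 7 in the shallow Sirpa-KO libraries, without overlap. Irf9 had 4 or 5 counts in each of the 5 shallow libraries and did not separate the genotypes. Irf7 was at 0 in all 3 Sirpa-WT libraries and at 0 and 1 count in the shallow Sirpa-KO libraries, where a count of 0 allows up to 8.85 CPM, and its 154 counts in the deep library equal only 5.15 CPM.

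Among the RNA sensors, Ddx58 rose in the test without the deep library. RIG-I, its product, detects short RNA duplexes with a 5′ triphosphate and signals through the adaptor MAVS. Ddx58 (ENSMUSG00000040296, chromosome 4, 40203773 to 40239828, minus strand, 18 merged exons) had 250, 166 and 205 CPM in Sirpa-WT and 313 and 373 CPM in Sirpa-KO replicates 2 and 3. Both shallow Sirpa-KO libraries lay above every Sirpa-WT library, and the log2 fold change was 0.60 ± 0.16 (SE, edgeR adjusted p = 0.00917, n = 3 and 2). The deep library, at 175 CPM, lay within the Sirpa-WT range in CPM, but below every Sirpa-WT library per protein-coding counts. Over 6 libraries the log2 fold change was 0.32 ± 0.40 (edgeR adjusted p = 0.736). The call was lost without Sirpa-WT replicate 2 (log2 fold change 0.46, edgeR adjusted p = 0.158), without Sirpa-KO replicate 3 (0.45, adjusted p = 0.340) and with DESeq2 (0.60, adjusted p = 0.0742). The other sensors had few counts. Ifih1, whose product MDA5 senses long RNA duplexes, had 1 to 4 counts in Sirpa-WT, against 3 and 0 in shallow Sirpa-KO, Dhx58, which encodes the RIG-I-like regulator LGP2, had 0 to 3, and Ddx60, a helicase linked to RIG-I signalling, had 0 to 3. In the deep library Ifih1 reached 48.8 CPM from 1458 counts, above every Sirpa-WT library. The sensors of nucleic acid in other forms, Zbp1, which binds Z-form nucleic acid, and the PYHIN genes Ifi203 and Ifi204, had 3 counts in Sirpa-WT and 2 in shallow Sirpa-KO together, too few to compare.

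Isg15 was the other member that rose in the test without the deep library. ISG15 is attached to other proteins, with TRIM25 among the ligases reported for it and USP18 as the protease that removes it. USP18 also dampens receptor signalling. Isg15 (ENSMUSG00000035692, chromosome 4, 156199424 to 156200818, minus strand, 2 merged exons) was counted 28, 24 and 26 times in Sirpa-WT and 52 and 50 times in Sirpa-KO replicates 2 and 3, which is 68.0, 69.8 and 75.2 CPM against 153 and 136 CPM. The 3 Sirpa-WT libraries were thus close to each other, as were the 2 shallow Sirpa-KO libraries, and the Isg15 log2 fold change without the deep library was 0.90 ± 0.24 (SE, edgeR adjusted p = 0.00534, n = 3 and 2). The deep library held 2000 Isg15 counts, which equal 66.9 CPM, below every Sirpa-WT library, and over 6 libraries the log2 fold change was 0.59 ± 0.41 (edgeR adjusted p = 0.577). The call was lost without Sirpa-KO replicate 2 (0.79, edgeR adjusted p = 0.172) and without Sirpa-KO replicate 3 (0.98, adjusted p = 0.0512), where a single Sirpa-KO library remained and was assumed to vary like the others. DESeq2 gave Isg15 no adjusted p and did not call it. Of the 25-base words of Isg15 transcripts, 17.2% also occur in other genes, which limits how surely its reads can be placed. Usp18 had 4, 0 and 1 counts in the Sirpa-WT libraries, against 6 and 3 in shallow Sirpa-KO, with overlap, and Trim25 had 1 to 3 counts against 1 and 5. Isg15, Usp18 and Trim25 summed to 72.7 to 85.0 CPM in Sirpa-WT, 174 and 158 CPM in shallow Sirpa-KO and 132 CPM in the deep library, and the summed counts gave a ratio of 2.07 (1.56 to 2.76).

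**Figure D2:**
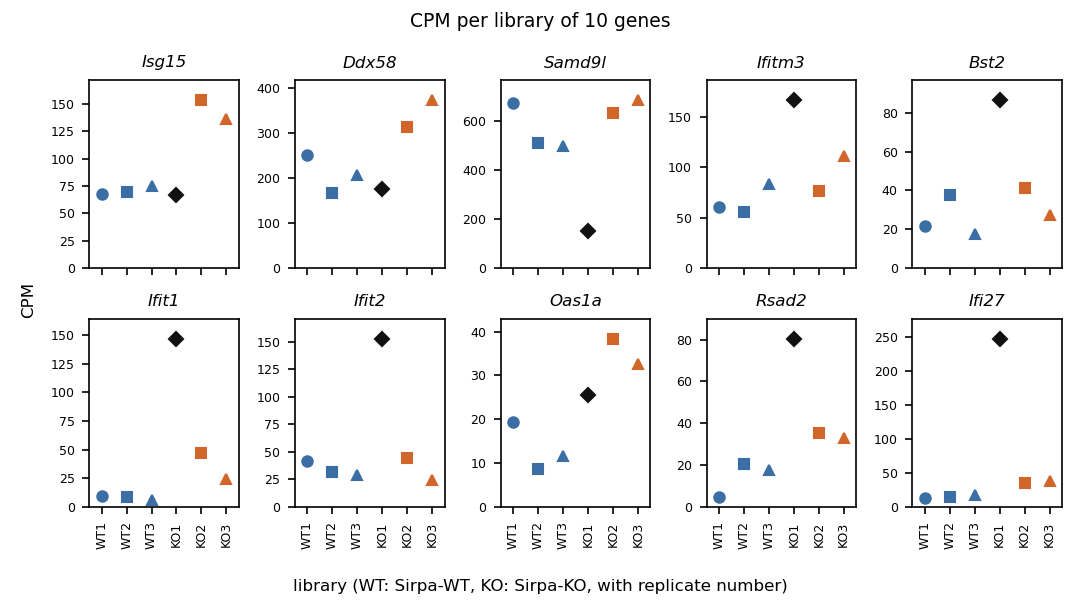
CPM in each library (vertical axes start at 0) for the 9 genes that passed the count filter without the deep library and for Ifit1; WT and KO with a number are Sirpa-WT and Sirpa-KO replicates. Isg15 and Ddx58 are higher in Sirpa-KO replicates 2 and 3 but not in the deep library (black diamond, 66.9 and 175 CPM), while Ifit1, Ifit2, Rsad2 and Ifi27 are highest in the deep library.

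Of the IFIT proteins, IFIT1 binds viral RNA that lacks the host's cap methylation and blocks its translation. The IFIT genes stand side by side on chromosome 19, with Ifit2 starting at 34550694 and Ifit1 ending at 34650009. Ifit1, Ifit2, Ifit3 and Ifit3b summed to 55.9, 43.6 and 49.2 CPM in Sirpa-WT, to 109 and 81.6 CPM in Sirpa-KO replicates 2 and 3, and to 389 CPM in the deep library. The shallow counts gave a ratio of 1.90 (1.31 to 2.76). Within this cluster the members behaved differently. Ifit1 had 4, 3 and 2 counts in the Sirpa-WT libraries, against 16 and 9 in shallow Sirpa-KO, without overlap, and 4391 counts (147 CPM) in the deep library. Ifit1 was under the count filter; with no filter its log2 fold change without the deep library was 1.92 ± 0.54 (SE, edgeR adjusted p = 0.0326), and over 6 libraries it was 2.71 (adjusted p = 0.507). Ifit2 had 17, 11 and 10 counts in the Sirpa-WT libraries, against 15 and 9 in shallow Sirpa-KO, so the genotypes overlapped (log2 fold change -0.14 ± 0.39, edgeR adjusted p = 0.883). In the deep library Ifit2 reached 153 CPM, against 28.9 to 41.3 CPM in Sirpa-WT, and over 6 libraries its fitted log2 fold change had the opposite sign (0.96, edgeR adjusted p = 0.585). Ifit3 had 1, 1 and 5 counts against 4 and 8, and Ifit3b had 1, 0 and 0 against 2 and 4. Ifit3 and Ifit3b share 66.1% and 59.2% of their 25-base words with other genes, chiefly with each other, so the split of reads between them is uncertain. Their promoter stretches printed above are identical as well.

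The OAS enzymes make oligoadenylates that activate RNase L, which degrades RNA. The OAS genes summed to 36.4, 17.5 and 28.9 CPM in Sirpa-WT, to 76.7 and 57.1 CPM in Sirpa-KO replicates 2 and 3, and to 53.0 CPM in the deep library, and the shallow counts gave a ratio of 2.36 (1.47 to 3.85). Oas1a and Oas2 carried this sum. Oas1a had 19.4, 8.73 and 11.6 CPM in Sirpa-WT, 25.5 CPM in the deep library and 38.4 and 32.6 CPM in Sirpa-KO replicates 2 and 3, so in CPM all Sirpa-KO libraries were above all Sirpa-WT libraries, which the deep library was not per protein-coding counts. The difference did not pass the test (log2 fold change 1.24 ± 0.53, edgeR adjusted p = 0.151), nor over 6 libraries with no filter (0.96 ± 0.60, adjusted p = 0.938). Oas1a shares 72.5% of its 25-base words with other genes, chiefly Oas1g and Oas1b, so its counts are uncertain. Oas2, which shares none, had 4, 1 and 3 counts in the Sirpa-WT libraries, 11 and 8 in shallow Sirpa-KO and 363 (12.1 CPM) in the deep library, which per protein-coding counts was also not above every Sirpa-WT library. Oas3 was barely detected, with 2 counts in the deep library and 0 in the 5 others. Oasl1 and Oasl2, whose products resemble OAS enzymes and regulate RNA sensing, had 0 to 3 counts in each shallow library. Mx1 and Mx2, genes of the dynamin-like GTPase family, formed the 1 subfamily with a ratio below 1, at 0.519 (0.0905 to 2.08). It came from 9 counts in Sirpa-WT and 3 in shallow Sirpa-KO, all of them from Mx1. Mx2 had 240 counts (8.03 CPM) in the deep library.

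Rsad2 encodes viperin, which makes a chain-terminating nucleotide, and Cmpk2, its neighbour on chromosome 12, a kinase that supplies the substrate. Rsad2 had 4.86, 20.4 and 17.4 CPM in Sirpa-WT, 80.3 CPM in the deep library and 35.4 and 32.6 CPM in Sirpa-KO replicates 2 and 3. All Sirpa-KO libraries were above all Sirpa-WT libraries, but a log2 fold change of 1.18 ± 0.54 did not pass the test (edgeR adjusted p = 0.182), nor did 1.67 ± 0.67 over 6 libraries (adjusted p = 0.574). Cmpk2 had 1 count in all 5 shallow libraries together and 485 (16.2 CPM) in the deep library. Bst2, or tetherin, holds budding virions at the cell surface. Bst2 had 21.9, 37.8 and 17.4 CPM in Sirpa-WT and 41.3 and 27.2 CPM in shallow Sirpa-KO, which overlap (log2 fold change 0.29 ± 0.43, edgeR adjusted p = 0.762), and 86.7 CPM in the deep library (0.87 ± 0.56 over 6 libraries, adjusted p = 0.574). Ifitm3 had 60.7, 55.3 and 83.9 CPM in Sirpa-WT and 76.7 and 112 CPM in shallow Sirpa-KO, also with overlap (0.39 ± 0.26, adjusted p = 0.414), and 167 CPM in the deep library (0.67 ± 0.38 over 6 libraries, adjusted p = 0.574). Ifitm3 shares 25.4% of its 25-base words with other genes. For both membrane proteins the deep library was the highest of the 6.

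A group of smaller proteins with mitochondrial, trafficking or cell-death roles showed the highest shallow ratio of the 11 subfamilies. Its interval overlapped those of the OAS genes, the ISG15 system and others, so its rank is not settled. Ifi27, Ifi35, Ifi44, Rtp4 and Xaf1 summed to 21.9, 43.6 and 40.5 CPM in Sirpa-WT, to 94.4 and 95.2 CPM in Sirpa-KO replicates 2 and 3, and to 349 CPM in the deep library, and the shallow counts gave a ratio of 2.75 (1.82 to 4.21). Ifi27, a mitochondrial membrane protein, had 12.1, 14.5 and 17.4 CPM in Sirpa-WT, 247 CPM in the deep library and 35.4 and 38.1 CPM in Sirpa-KO replicates 2 and 3. The groups did not overlap, yet neither fit called it (1.20 ± 0.51, edgeR adjusted p = 0.146 without the deep library; 2.70 ± 0.89, adjusted p = 0.574 with it). Rtp4, a chaperone of G-protein-coupled receptors, had 0, 3 and 4 counts in the Sirpa-WT libraries, 961 (32.2 CPM) in the deep library and 12 and 9 in the shallow Sirpa-KO libraries. Rtp4 was under the count filter, and with no filter its log2 fold change without the deep library was 2.01 ± 0.60 (edgeR adjusted p = 0.0545). Xaf1, an antagonist of the apoptosis inhibitor XIAP, had 1, 2 and 1 counts against 5 and 7, while the interferon-induced cytoplasmic proteins Ifi35 and Ifi44 had overlapping groups. Ifit1, Rtp4, Stat2, Oas2 and Xaf1 are described by library because of their values, which had been seen.

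Samd9l took the most counts of any member in each shallow library, and its own CPM was lower in the deep library than in any other. Samd9l (chromosome 6, 3372257 to 3399571, minus strand) had 675, 512 and 498 CPM in Sirpa-WT and 635 and 685 CPM in Sirpa-KO replicates 2 and 3, which overlap (log2 fold change 0.11 ± 0.12, edgeR adjusted p = 0.684). In the deep library it had 150 CPM, below every other library, and the log2 fold change over 6 libraries was -0.33 ± 0.63 (edgeR adjusted p = 0.818). Parp14, an ADP-ribosyltransferase, and Sp100, a nuclear body protein, had 0 to 4 counts in each shallow library and 542 and 584 counts in the deep library. Samd9l, Parp14 and Sp100 together gave a ratio of 1.16 (1.02 to 1.30) over the shallow libraries, nearly all of it from Samd9l counts. On the TMM scale that ratio was 1.08, and the interval of Samd9l alone was 0.947 to 1.21, so no difference was detectable.

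**Figure D3:**
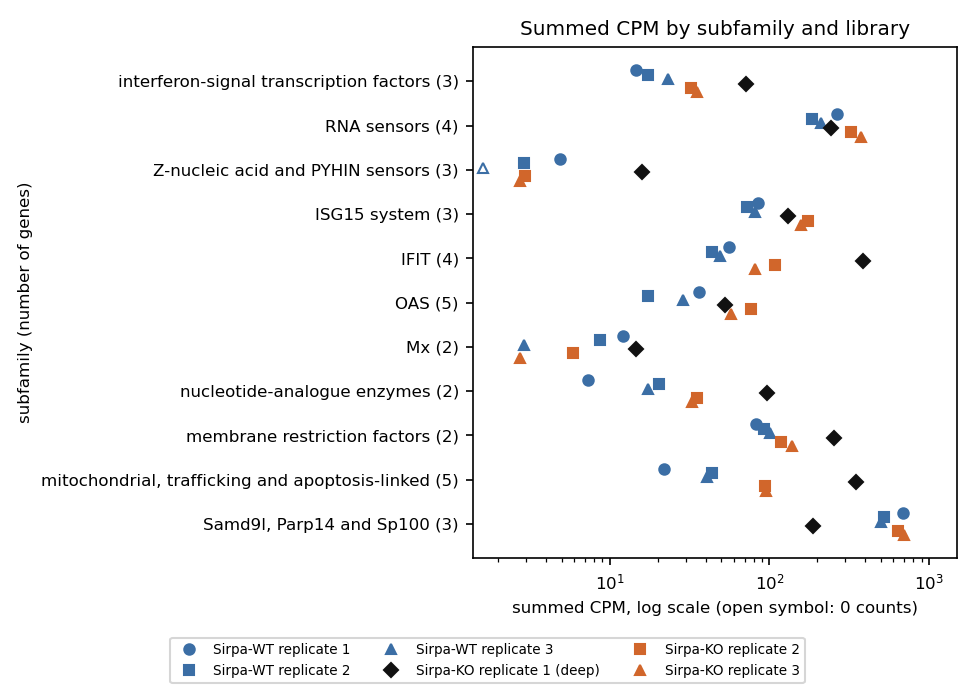
Summed CPM (log axis) of each subfamily in each library; the number of genes is in parentheses, and an open symbol at the left edge stands for 0 counts. Orange symbols, which are Sirpa-KO replicates 2 and 3, lie to the right of all blue ones in 8 of the 11 subfamilies. In 7 of these the deep library (black) does too on this CPM scale, the RNA sensors being the other. Per protein-coding counts the RNA sensor sum of the deep library (248.8) was below every Sirpa-WT library (269.6 to 388). With RLE scaling it was below them too (179.5 against 204.6 to 293.5). With RLE scaling the OAS sum of the deep library (38.8) was within the Sirpa-WT range (19.2 to 40.0). The exceptions to the 8 are Mx, the Z-nucleic acid and PYHIN sensors, and Samd9l with Parp14 and Sp100. Of single genes with at least 10 shallow counts, 22.1% had both orange libraries above Sirpa-WT in CPM, and 17% all 3 Sirpa-KO libraries. Sums of several genes have less counting error than single genes, so these shares are not the background for the subfamily counts, and none was computed.

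Across the 36 genes, 2 rose, none fell and 7 did not pass among the 9 that could be tested without the deep library. In that fit edgeR called 1.32% of 5510 tested genes higher and 4.52% lower, and the 2 higher members were Isg15 and Ddx58. At an unadjusted p under 0.05, 5 members were higher, where 8.95% of all tested genes were. The median log2 fold change was 0.60 over the 9 and 0.01 over all genes tested, and 8 of the 9 were above 0, as were 51.2% of all genes. These counts come after a filter on low values. Rsad2, Ifi27 and Oas1a passed it only through the Sirpa-KO libraries and Bst2 through 1 library of each genotype, so the count and median are a description. Ifit2, Isg15, Ddx58, Ifitm3 and Samd9l passed through Sirpa-WT libraries alone, and 27 members were under the filter. Over 6 libraries edgeR called 0% of 5397 genes and none of 8 tested members, with 2 members (Ifi27 and Rsad2) and 344 genes at an unadjusted p under 0.05, 4.71% of all tested genes in the higher direction. Of the 8, 7 had a fitted log2 fold change above 0, as did 52.7% of all genes, and the median was 0.77 against 0.11. Ifi27 and Rsad2, at most 17.4 and 20.4 CPM in Sirpa-WT, passed this filter too only through the Sirpa-KO libraries. The counts and median over 6 libraries are therefore also a description. In that fit DESeq2 called 1 gene and limma voom 1283, none of them a member. The biological coefficient of variation was 75.8% there, against 7.25% without the deep library.

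Counted gene by gene, 10 of the 21 members with at least 10 counts over the shallow libraries had both shallow Sirpa-KO libraries above all 3 Sirpa-WT libraries in CPM. Of the 21, 10 reached that minimum only with Sirpa-KO counts, 5 of them among the 10 that stood apart (Ifit1, Oas2, Rtp4, Stat2 and Xaf1), so the count is a description. Of the 11 members with at least 10 counts in Sirpa-WT alone, 5 stood apart, where 21.5% of 8850 such genes did. The 10 of 21 are 47.6%, where 22.1% of all 10591 genes with such counts did so, and 15.5% on a scale corrected for composition (TMM). The 10 were Ddx58, Ifi27, Ifit1, Isg15, Oas1a, Oas2, Rsad2, Rtp4, Stat2 and Xaf1, and the same 10 stood apart under each of 5 scalings of the shallow libraries. None of the 21 lay the other way, where 9.24% of all genes did (14.4% on the TMM scale). With the deep library included, 8 of the 21 (38.1%) had every Sirpa-KO library above every Sirpa-WT library in CPM. Of all genes 17% did so, and of protein-coding genes 21.5%. Of the 10, the 2 that did not were Ddx58 and Isg15, the members that passed the test. Per protein-coding counts, and with RLE scaling, 6 of the 21 (28.6%) did so, without Oas1a and Oas2. Of all genes 13.3% did per protein-coding counts and 11.5% with RLE scaling. In pooled CPM 18 of the 21 were higher in shallow Sirpa-KO (85.7%, against 62% of all genes and 53% on the TMM scale), and Ifit2, Ifih1 and Mx1 were lower. On the TMM scale the ratios ran from 4.30 for Xaf1 (1.30 to 18.3) and Rtp4 (1.76 to 12.0) through 1.88 for Isg15 (1.38 to 2.55) and 1.51 for Ddx58 (1.25 to 1.81) to 0.478 for Mx1 (0.0832 to 1.92). The wide intervals at both ends belong to genes with few counts.

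**Figure D4:**
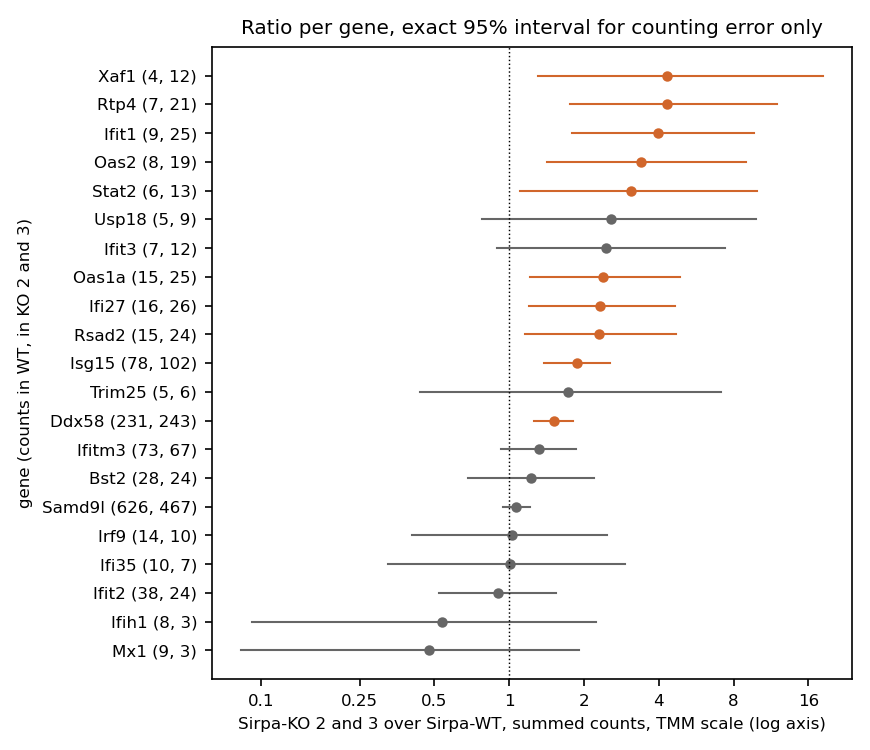
Ratio of summed counts in Sirpa-KO replicates 2 and 3 to those in Sirpa-WT on the TMM scale (log axis) for the 21 genes with at least 10 shallow counts, with exact 95% intervals for counting error only; the counts in Sirpa-WT and in shallow Sirpa-KO are in parentheses. Orange marks intervals wholly above 1, and Isg15 (1.88) and Ddx58 (1.51) have narrower intervals than the genes with higher ratios.

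The deep library detected members that had few or no counts elsewhere, but it is a single Sirpa-KO library and does not show their expression in the others. All 36 were detected there, 32 of them with over 100 counts, and Oas3 was the lowest with 2. Of the 36, 30 had a higher CPM in the deep library than in any Sirpa-WT library, and 2, Isg15 and Samd9l, a lower one. Per protein-coding counts Ddx58 was also lower there than in any Sirpa-WT library. The higher direction is common in this library: of the 21 members with at least 10 shallow counts 17 lay above all Sirpa-WT libraries (81%). Of all such genes 59.6% did, and of the protein-coding ones 74.9%. Per protein-coding counts it was 15 of the 21, where 51.5% of genes did. Per kilobase of merged exons, the deep library had 246 CPM per kb of Ifitm3, 168 of Ifi27, 113 of Bst2, 88.6 of Isg15 and 55.3 of Ifit1, down to 0.454 of Ifi44, 0.332 of Zbp1 and 0.0128 of Oas3. The mean of the shallow libraries had another order, with Isg15 at 132.9, Ifitm3 at 114.5, Samd9l at 110.8 and Bst2 at 38.1 CPM per kb. The ranges of the first 3 of these over libraries overlap. Ifi27 ranked 2 in the deep library and 6 in the shallow mean, and Samd9l ranked 8 and 3.

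**Figure D5:**
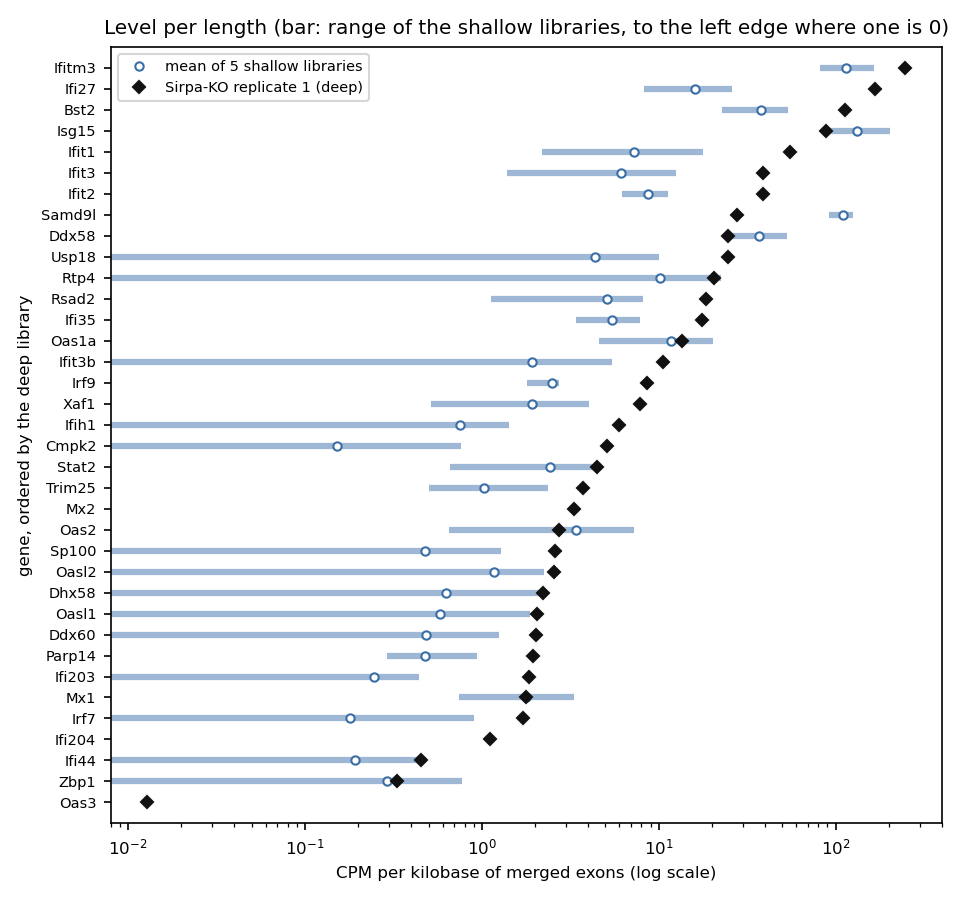
CPM per kilobase of merged exons (log axis) of the 36 genes, ordered by the deep library; bars span the 5 shallow libraries, reaching the left edge where at least 1 library was at 0, and open circles are their mean. Ifi27, Ifit1 and Ifit2 lie far to the right of their bars in the deep library, Samd9l lies to the left of its bar, and Mx2, Ifi204 and Oas3 have no shallow count.

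The rest of the pathway was described with 67 other genes, of which 19 could be tested without the deep library. Cxcl10 alone passed, which is 1 higher and 0 lower, where 1.32% and 4.52% of all tested genes were called. Cxcl10, a chemokine that recruits T cells and is induced by type I and type II interferon, had 85, 75 and 78 counts in the Sirpa-WT libraries, 22702 in the deep library and 175 and 198 in Sirpa-KO replicates 2 and 3. All Sirpa-KO libraries were above all Sirpa-WT libraries, and the log2 fold change was 1.16 ± 0.15 (edgeR adjusted p = 1.1e-11). Over 6 libraries edgeR did not call it (1.32 ± 0.30, adjusted p = 0.574), while DESeq2 (1.18, adjusted p = 0.0133) and limma voom (1.33, adjusted p = 0.00223) did. RNA of the ligands was not detected in any shallow library, and of the 8 ligand genes only Ifnb1 had a count in the deep library, a single one among 29877270. Of 6 receptor genes 3 were tested and none called, and Ifnar1, a chain of the type I receptor, had 14, 13 and 11 counts in the Sirpa-WT libraries, against 15 and 12 in shallow Sirpa-KO (log2 fold change 0.03 ± 0.37, edgeR adjusted p = 0.977; 0.18 ± 0.34 over 6 libraries, adjusted p = 0.818). Of 5 kinases 2 were tested, and Jak1 had 176, 138 and 121 counts against 127 and 117 (-0.31 ± 0.15, adjusted p = 0.205; -0.62 ± 0.43 over 6 libraries, adjusted p = 0.577). Among 7 adaptors and DNA-sensing genes 2 were tested, and Cgas, the DNA sensor, had 28, 13 and 7 counts against 19 and 17 (0.11 ± 0.33, adjusted p = 0.896; -0.18 ± 0.60 over 6 libraries, adjusted p = 0.871). Of 5 brakes 3 were tested, and Ptpn11, the phosphatase SHP2, which also binds SIRPα, had 38, 30 and 26 counts against 44 and 60 (0.66 ± 0.23, edgeR adjusted p = 0.0522; 0.78 ± 0.27 over 6 libraries, adjusted p = 0.574). The group of 29 other induced genes, 8 of them tested, holds Cxcl10. Adar, which edits RNA duplexes and limits their sensing, had 7, 3 and 7 counts against 13 and 18 (1.37 ± 0.46, edgeR adjusted p = 0.0522; 1.63 ± 0.48 over 6 libraries, adjusted p = 0.574), and was singled out after its values were seen.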

How the data were processed

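Poly(A)-selected RNA of 6 libraries (TruSeq Stranded mRNA, per the labels) was counted by the authors. The deposited values are raw counts per gene, made with featureCounts 1.5.1, per the file headers, from exons in the GRCm38 annotation of Ensembl release 75, without a strand option. STAR 2.6.0 and Subread are in the submitters' processing notes. Without strand, Ifi35 (16.8% of exon bases) and Dhx58 (4.31%) cannot be separated from opposite-strand genes. The filter on low counts was filterByExpr with a minimum of 10 (about 28.9 CPM in a shallow library). After TMM scaling, edgeR's quasi-likelihood test was applied (robust, 2-sided, Benjamini-Hochberg over all genes, threshold 0.05), with 6 libraries and without Sirpa-KO replicate 1. Genes under the filter took values from a fit with no filter. Software was edgeR 4.0.16, DESeq2 1.42.0 and limma 3.58.1 in R 4.3.3, shared 25-base words were sought in GENCODE mouse transcripts, and the fits were run on simulated data. For both fits the simulation took gene proportions from the shallow libraries and a biological coefficient of variation of 7.25%. It therefore did not cover the 75.8% of the 6-library fit or the composition of the deep library. Members, lists, subfamilies, and the 5-library fit were chosen with earlier results of these data known. The rule named members that passed the filter without the deep library or were called, called genes of the pathway list, and otherwise each role's most abundant gene by count. Alternatives were other scalings, filters and tools, a replicate block, removal of a trend on the deep library's ratio, and leaving out each library. A marker gene and a gene of the pathway list are not reported here.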

Additional observations from a re-analysis of the deposited data

How the results depend on the processing

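Without the deep library, the 2 calls among the members became 4 with a filter at 1 CPM (Ifit1 and Rtp4 added), 3 with no filter and 0 with DESeq2, which gave no adjusted p for 7 of the 9, and 0 to 2 when each library was left out. Removing the trend on the deep library's ratio gave log2 fold changes of 1.09 for Isg15 and 0.78 for Ddx58, both called. Over 6 libraries the count of 0 members held under each alternative but 1, reaching 2 without Sirpa-KO replicate 1 (range 0 to 2 when each library was left out). The pathway genes called, 1 at first, were 3 by library size alone (Adar and Ptpn11 added), 2 with robust=FALSE and 1 to 2 when each library was left out (Adar was added without Sirpa-WT replicate 3). Scaling by library size alone moved the median log2 fold change of all genes from 0.11 to 0.36 over 6 libraries and from 0.013 to 0.15 without the deep library. The ratio of the summed CPM, 1.52 over 6 libraries, was 2.16 without Samd9l and 3.20 without Samd9l, Ddx58, Isg15 and Ifitm3, an alternative chosen after seeing the data. Without the deep library it was 1.76 and 1.88, against 1.47. When each library was left out the ratio ran from 1.46 to 1.63 and from 1.41 to 1.58. RLE scaling, also chosen after seeing the data, gave 1.25 over 6 libraries, and the other alternatives for the ratio gave at least 1.32 with the deep library and 1.35 without it. On the log2 scale, leaving out each library in turn gave -0.14 to 1.27 for Ifit2 and -0.69 to 0.11 for Samd9l over 6 libraries, the sign turning without the deep library. Without the deep library it gave -0.63 to 0.23 for Ifit2 (0.037 without Sirpa-WT replicate 1) and -0.047 to 0.56 for Bst2, which turned without Sirpa-KO replicate 2. None of these was called, and the cause was not tested.

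The replicate numbers did not pair the libraries: the correlation of deviations between same-numbered libraries was -0.012 to 0.032 over 6 libraries and 0.0041 to 0.011 without the deep library. With the replicate number as a block, 2 members of 316 called genes were called without the deep library, against 2 of 322, and 0 over 6 libraries. Ifit2 became 0.044 under the block, and no other named member changed sign. At this depth, genes with under 10 shallow counts could not be compared.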
